A study of Homo sapiens with 17 samples.

Results

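The genes described here are 44 genes of the response to low oxygen and of glycolysis, followed in MDA-MB-231 cells over 24 h with TRAIL. They were taken by gene symbol from a table of 58870 entries, and solute carriers were left out of the set. The rule itself uses no measured value, but the members were chosen with earlier results of these data known. Shares of members set beside those of all tested genes are therefore descriptive. All 44 were found and all 44 passed the filter on low counts, which left 15365 genes for testing. MDA-MB-231 is an established human line from a triple-negative breast cancer, and its label calls it mesenchymal basal B. TRAIL, a relative of TNF, binds death receptors on the cell surface and can trigger apoptosis.

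All 6 groups were cells of this 1 line in RPMI medium with serum, they all carried the same treatment label, TRAIL at 45 nM, and they differed in the time before RNA was taken. The groups were 0 h, 3 h, 6 h, 12 h and 24 h with 3 libraries each, and 1 h with the 2 libraries analysed here. The submitters called the dose suboptimal and chose it to follow living cells. No library analysed here is labelled as kept without TRAIL to a later time, so the effects of TRAIL and of hours spent in the dish or in handling cannot be told apart. The labels name no oxygen level. They do not say whether replicates were separate cultures, so the p-values may measure technical spread only. Replicates 2 and 3 were closer to each other than any other libraries of 1 time, both at 6 h and at 24 h: their squared count differences averaged 1.57 and 1.66 times counting noise over genes with a summed count of at least 20, where other pairs ran from 3.44 to 12.3 times. The median ratios were 0.58 and 0.595 for these pairs and 0.993 to 2.26 for the others. Both means were above counting noise, but this does not show that the libraries came from separate samples. The 6 h and 24 h groups may therefore hold fewer independent samples than libraries. All 17 libraries were kept as separate, and the counts with these pairs averaged are given for 6 h and 24 h below.

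In hypoxia signalling, the transcription factor subunits encoded by HIF1A and EPAS1 pair with a constant partner, ARNT, and bind short DNA elements near their target genes. When oxygen is present, the prolyl hydroxylases EGLN1 and EGLN3 mark the subunits for destruction through the VHL ligase, so the amount of factor is set largely at the protein level, which RNA does not show. Targets include vessel growth factors, pH regulators, mitophagy receptors, collagen-modifying enzymes and most steps of glycolysis, the pathway that breaks glucose down to pyruvate and lactate. Many cancer cells run glycolysis at a high rate even with oxygen.

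The letters at the core of a hypoxia response element are ACGTG or GCGTG, and promoter sequence shows where such letters lie in the genes whose levels are given below. RefSeq windows (GRCh38.p14) of 250 bases before to 50 after a transcript start were at hand for 41 of the 44 genes, all except VEGFA, NDRG1 and BNIP3L. At least 1 window held ACGTG, read on either strand, in 27 of the 41 genes (65.9%), against 24.9% of all 27305 genes with a window. With GCGTG added, 38 of 41 genes (92.7%) had a match, against 52.4% of all genes. Genes with more windows have more chances of a match, and by window the ACGTG shares were 48.6% of 70 windows and 21.4% of 35116. The genes compared with were not limited to those tested here, and the 44 were listed as genes of hypoxia and glycolysis. The shares therefore describe the list and are not a result of these data. A match is a run of letters and not a binding site, and the words overlap where CACGTG is read on both strands.

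The 250 bases before the start are shown 5′ to 3′ on the gene's strand for 6 genes: 5 with ACGTG, chosen to span the roles described below, and PFKFB4, which fell furthest and has GCGTG only. Capitals mark ACGTG on either strand (printed as ACGTG or CACGT, with overlaps joined), and in PFKFB4 GCGTG. Where a gene had several windows, the one with the most ACGTG matches is shown. The windows on GRCh38.p14 are chr9:35673678-35673927 (plus strand) for CA9, chr2:172555840-172556089 (plus) for PDK1, chr11:18394313-18394562 (plus) for LDHA, chr4:185396591-185396840 (plus) for ANKRD37, chr10:73096867-73097116 (minus) for P4HA1 and chr3:48556804-48557053 (minus) for PFKFB4.
CA9: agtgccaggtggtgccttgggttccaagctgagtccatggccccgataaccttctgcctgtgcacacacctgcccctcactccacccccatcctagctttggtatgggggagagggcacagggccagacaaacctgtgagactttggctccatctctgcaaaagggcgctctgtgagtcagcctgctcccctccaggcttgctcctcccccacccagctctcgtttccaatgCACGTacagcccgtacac
PDK1: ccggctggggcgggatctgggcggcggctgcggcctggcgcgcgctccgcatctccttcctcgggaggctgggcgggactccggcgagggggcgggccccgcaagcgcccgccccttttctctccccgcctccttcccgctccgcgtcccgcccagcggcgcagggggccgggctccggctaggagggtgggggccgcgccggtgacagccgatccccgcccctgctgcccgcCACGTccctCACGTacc
LDHA: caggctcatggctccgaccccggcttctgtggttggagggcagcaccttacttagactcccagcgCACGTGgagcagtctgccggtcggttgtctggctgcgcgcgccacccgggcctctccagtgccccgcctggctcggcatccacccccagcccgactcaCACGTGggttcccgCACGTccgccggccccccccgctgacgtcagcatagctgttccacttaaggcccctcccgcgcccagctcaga
ANKRD37: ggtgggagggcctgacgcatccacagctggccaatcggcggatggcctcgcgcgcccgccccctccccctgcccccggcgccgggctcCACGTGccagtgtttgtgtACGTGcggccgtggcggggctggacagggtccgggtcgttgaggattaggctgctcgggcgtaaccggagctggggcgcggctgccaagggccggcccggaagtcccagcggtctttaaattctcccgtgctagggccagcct
P4HA1: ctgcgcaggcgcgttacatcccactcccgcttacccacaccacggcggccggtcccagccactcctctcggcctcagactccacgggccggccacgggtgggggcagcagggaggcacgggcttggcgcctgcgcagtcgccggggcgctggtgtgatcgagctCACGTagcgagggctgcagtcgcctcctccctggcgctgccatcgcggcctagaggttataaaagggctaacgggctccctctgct
PFKFB4: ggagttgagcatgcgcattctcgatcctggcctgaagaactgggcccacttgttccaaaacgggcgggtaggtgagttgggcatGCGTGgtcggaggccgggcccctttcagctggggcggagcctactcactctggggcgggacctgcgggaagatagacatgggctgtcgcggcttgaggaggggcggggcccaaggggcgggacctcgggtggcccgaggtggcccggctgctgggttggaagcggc
CA9 has 1 match, which begins 18 bases before the start and is read on the opposite strand, and PDK1 has 2 close together next to the start. LDHA has 5 matches, of which 4 come from 2 copies of CACGTG read on both strands. At 3 h, 18 of the 27 genes with ACGTG and 9 of the 14 without it were called lower than at 0 h. Of all tested genes, 8.71% were called lower there. The median log2 fold changes of the 2 groups were -0.28 and -0.23. The group without ACGTG includes PFKFB4 and EGLN3, the members with the lowest log2 fold changes at that time.

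Levels are CPM, counts per 1000000 counts of a library, scaled between libraries by the TMM method. A gene is called when its adjusted p in edgeR's quasi-likelihood test is below 0.05, with Benjamini-Hochberg adjustment over all 15365 genes. All adjusted p-values below come from this test. Log2 fold changes are edgeR estimates with their standard error (SE).

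Hypoxia and glycolysis genes were mostly lower at 3 h, with fewer lower at 6 and 12 h, and with calls in both directions at 24 h. At 1 h, 0 of the 44 were called in either direction, where 0.260% of all tested genes were called higher and 0.0521% lower. In that comparison DESeq2 and limma-voom also called 0 members. At 3 h, 28 of 44 (63.6%) were called lower, against 8.71% of all tested genes, and 1 was called higher, ANGPTL4, against 9.04%. The median log2 fold change of the 44 was -0.24 at 3 h, where that of all tested genes was -0.0041. The 44 were more abundant, with a median log2 CPM of 6.58, against 4.29 for all tested genes. Small changes are easier to call at higher counts, and the all-gene shares here and below are not matched for level. In every 3 h library, 33 of the 44 lay below every 0 h library, which 16.7% of all tested genes did.

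The 28 lower calls rested partly on single libraries: 18 were left on omission of replicate 2 of 0 h, and likewise 18 on omission of replicate 3. In all 31 alternative settings and omissions, 15 of the 28 lower calls held: EGLN1, EGLN3, NDRG1, BNIP3, ANKRD37, KDM3A, MXI1, P4HA1, HK2, PFKP, PGK1, PGAM1, PFKFB3, PFKFB4 and PDK1. These 15 include 3 of the 4 regulators of glycolytic flux and 4 of the 16 glycolytic enzymes.

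At 6 h, 18 members were lower (13.2% of all tested genes were) and 2 were higher, WSB1 and HK1 (16.9% of all). At 12 h, 12 were lower (6.48% of all) and 3 were higher, VEGFA, WSB1 and PPP1R3C (5.96%). The 12 lower calls at 12 h became 7 without the 12 h replicate 2, and the 3 higher calls became 0 when replicate 2 of either 0 h or 12 h was left out. They became 1 on omission of replicate 1 of 0 h, or of replicate 1 or 3 of 12 h. At 24 h, 10 members were higher and 7 lower, with 18.0% and 17.1% of all tested genes, so both shares were near those of the background. The 10 higher calls became 6 without the 24 h replicate 3 and 6 with the near-identical pairs averaged. They became 20 when libraries were scaled by total count only. That scaling also moved the median log2 fold change of all tested genes at 24 h from -0.0017 to 0.072. The share of all tested genes called with it is not given here. At 6 h averaging gave 1 higher call.

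Between consecutive times, 14 members were lower and 1 higher at 3 h than at 1 h (2.56% and 3.17% of all tested genes). The 14 became 8 when replicate 1 of 1 h was omitted and 9 for replicate 2 of 3 h. The 1 higher call, ANGPTL4, was lost on omission of either 1 h library, or of replicate 1 or 2 of 3 h. From 3 h to 6 h, 19 were higher and 8 lower (22.9% and 20.3% of all). From 6 h to 12 h, 11 were higher (8.70% of all) and 2, PFKL and PFKP, were lower (11.9%). The 11 became 7 and 6 without the 6 h replicate 2 or 3, while the 2 lower calls became 0 on omission of replicate 3 of 6 h or replicate 2 of 12 h, and 1 for replicate 2 of 6 h or replicate 1 of 12 h. From 12 h to 24 h, 14 were higher (6.42% of all) and 3, VEGFA, ADM and ANGPTL4, were lower (5.60%), and the 14 became 4 when replicate 1 of 12 h was omitted, 7 for replicate 2 of 24 h and 6 for its replicate 3. The lowest of the 6 mean levels was that at 3 h for 26 of 44 members, against 25.3% of all tested genes, and the highest was that at 24 h for 26 of 44, against 22.7%. Tested over all times at once, 44 of 44 varied, where 64.2% of all tested genes did, a share not matched for level.

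**Figure D1:**
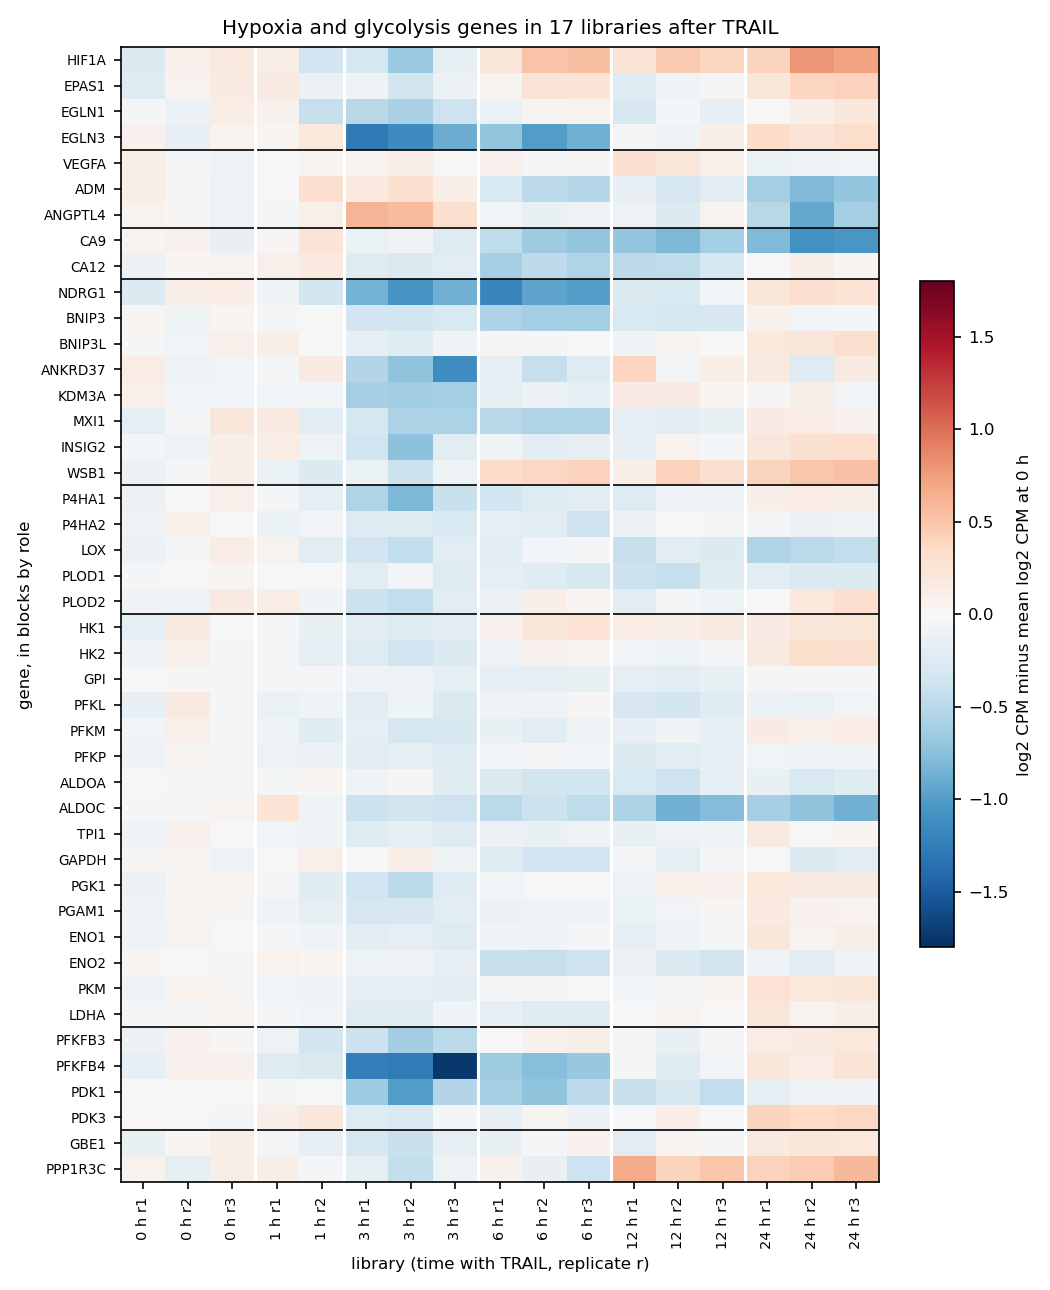
Each row is 1 of the 44 genes, in blocks by role, and each column 1 of the 17 libraries, labelled by hours with TRAIL and replicate (r). Colour is log2 CPM minus the gene's mean log2 CPM at 0 h: the 3 h columns are mostly blue, with EGLN3, NDRG1 and PFKFB4 the darkest, CA9 and ALDOC stay blue to 24 h, and HIF1A and WSB1 turn red from 6 h.

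**Figure D2:**
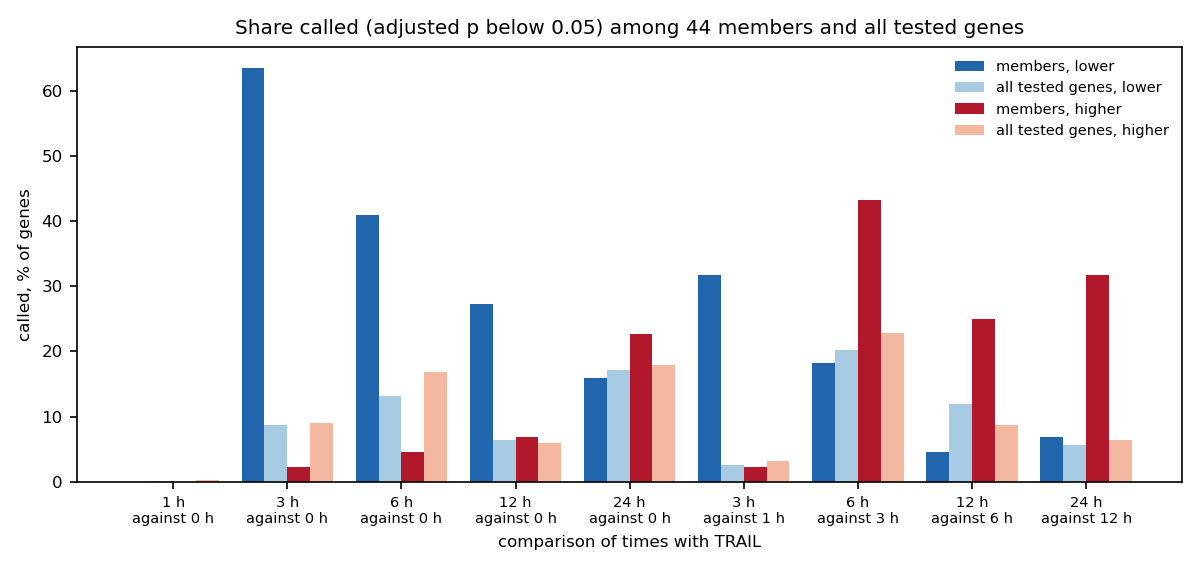
Bars give the percentage of the 44 genes (dark) and of all 15365 tested genes (light) called lower (blue) or higher (red) in each comparison of times, by edgeR at an adjusted p below 0.05. At 3 h against 0 h, 63.6% of the 44 genes and 8.71% of all tested genes were lower.

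Of the genes for oxygen sensing, the hydroxylase EGLN3 fell most. EGLN3 (ENSG00000129521.13, chromosome 14, 33924231 to 34462774, minus strand; positions here and below are those of GENCODE 29 on GRCh38) is itself a known target of the factor it helps to remove. EGLN3 measured 17.4, 14.8 and 17.2 CPM at 0 h, then 16.96 and 18.7 after 1 h, 6.82, 7.53 and 8.82 after 3 h, 10.0, 8.16 and 9.07 after 6 h, 16.1, 15.7 and 17.9 after 12 h, and 20.7, 19.3 and 20.4 after 24 h. All 3 libraries at 3 h and all 3 at 6 h lay below every library of the other times. EGLN3 fell at 3 h (log2 fold change -1.09, SE 0.110, adjusted p 1.3e-06) and was still lower at 6 h (log2 fold change -0.86, SE 0.104, adjusted p 1.2e-05). It then rose from 6 h to 12 h by a log2 fold change of 0.86 (adjusted p 1.2e-05) and ended higher than at 0 h, 0.29 (adjusted p 0.024) at 24 h. That last call was lost in 4 of 31 alternative settings (adjusted p 0.056 to 0.11), among them leaving out 0 h replicate 2 and 24 h replicates 1 and 3.

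EGLN1, the main oxygen-sensing hydroxylase in most cells, fell at 3 h as well, from 57.4 ± 5.05 to 40.8 ± 2.98 CPM (SD, n = 3; log2 fold change -0.49, SE 0.108, adjusted p 0.0044). It was not called at 6 h, when its log2 fold change against 0 h was -0.0031, close to 0. Its rise from 3 h to 6 h, 0.49 (adjusted p 0.0014), was 0.269 after the correction for transcript length and GC content described below.

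HIF1A, the oxygen-regulated subunit best known for driving glycolytic genes, had its lowest levels at 3 h too, but without a call, and rose later. HIF1A measured 175, 224 and 236 CPM at 0 h, then 228 and 165 after 1 h, 168, 132 and 186 after 3 h, 244, 300.4 and 306 after 6 h, 246, 292 and 274 after 12 h, and 277, 365 and 347 after 24 h. The 3 h values overlapped those of 0 h, and the 24 h values were all above them. At 3 h the log2 fold change was -0.39, with an adjusted p of 0.13 that missed the threshold. HIF1A rose from 3 h to 6 h (log2 fold change 0.81, SE 0.167, adjusted p 0.0018) and was higher at 24 h than at 0 h (log2 fold change 0.64, SE 0.164, adjusted p 0.0095). Against 0 h, HIF1A was not called at 6 h (0.42, adjusted p 0.070) or at 12 h (0.35, adjusted p 0.18). The 6 h difference was called in 5 of 31 alternative settings. Its expected counts were not whole in any of the 17 libraries, so part of its fragments was divided with other entries.

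EPAS1, which encodes the related subunit HIF-2 alpha, was called higher than at 0 h only at 24 h, 0.33 (adjusted p 0.017), with 40.5 ± 5.53 CPM at 0 h and 50.9 ± 3.82 at 24 h (SD, n = 3). The 24 h call of EPAS1 was lost in 5 of 31 alternative settings (adjusted p 0.052 to 0.12), among them leaving out 0 h replicate 1 and 24 h replicates 2 and 3. After the length and GC correction the log2 fold change was 0.218 (adjusted p 0.052). Per kilobase of transcript, EPAS1 gave 12.7% ± 0.247 of the summed level of the 2 HIF subunits at 0 h and 10.6% ± 0.714 at 24 h (SD, n = 3), so HIF1A was the more abundant RNA at both times.

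The secreted products did not move as a group. VEGFA, the growth factor for blood vessels, was close to its starting level in most libraries. VEGFA measured 354, 322 and 313 CPM at 0 h, then 329.7 and 342 after 1 h, 344, 356 and 328 after 3 h, 348, 325 and 333 after 6 h, 397, 379.9 and 351 after 12 h, and 303, 310.4 and 318 after 24 h. Libraries of every later time overlapped those of 0 h. Its 1 call against 0 h was a rise at 12 h (log2 fold change 0.19, SE 0.0592, adjusted p 0.042). This call was lost in 15 of 31 alternative settings (adjusted p 0.051 to 0.17), among them leaving out 0 h replicates 2 and 3, 1 h replicates 1 and 2, 3 h replicate 1, 6 h replicates 2 and 3, 12 h replicates 1 and 2 and 24 h replicates 2 and 3. With the length and GC correction described below VEGFA was also called higher at 6 h than at 0 h, 0.202 (adjusted p 0.0039) in place of 0.025, and than at 3 h, 0.250 (adjusted p 0.00044) in place of -0.031. VEGFA fell from 12 h to 24 h by a log2 fold change of -0.28 (adjusted p 0.0061). Leaving out the 12 h replicate 1 ended that call (adjusted p 0.052), and with the length and GC correction the value was -0.167. The corrected values of VEGFA, with the added calls at 6 h, rest on a representative transcript of 1199 bases. VEGFA counts were not whole in 17 libraries.

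ANGPTL4, an inhibitor of lipoprotein lipase, was the 1 member that rose at 3 h. ANGPTL4 measured 14.8, 14.4 and 13.3 CPM at 0 h, then 13.8 and 15.1 after 1 h, 21.7, 21.0 and 17.3 after 3 h, 13.7, 12.9 and 13.5 after 6 h, 13.3, 11.9 and 14.7 after 12 h, and 10.0, 7.50 and 9.21 after 24 h. Each 3 h library was above every library of the other times, and each 24 h library was below all of them. ANGPTL4 was higher at 3 h (log2 fold change 0.50, SE 0.108, adjusted p 0.0039), fell from 3 h to 6 h (log2 fold change -0.58, SE 0.109, adjusted p 0.00040, or -0.363 with the length and GC correction), and was lower than at 0 h after 24 h (log2 fold change -0.67, SE 0.116, adjusted p 0.00032).

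ADM encodes adrenomedullin, a peptide that widens vessels. ADM measured 34.3, 31.3 and 30.0 CPM at 0 h, then 32.0 and 39.1 after 1 h, 36.0, 38.9 and 34.4 after 3 h, 26.2, 23.0 and 22.3 after 6 h, 28.7, 25.9 and 27.6 after 12 h, and 20.7, 18.3 and 19.7 after 24 h. At 6 h and at 24 h every library lay below every 0 h library. ADM fell at 6 h (log2 fold change -0.42, SE 0.0896, adjusted p 0.0020) and was lower again at 24 h (log2 fold change -0.70, SE 0.0914, adjusted p 2.2e-05). At 3 h it was not called, with a log2 fold change of 0.19, so none of the 3 secreted products was called lower at that time.

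Both carbonic anhydrases, which sit in the cell membrane and regulate pH outside the cell, were lower at 6 and 12 h, and CA9 also at 24 h. CA9 (ENSG00000107159.13, chromosome 9, 35673856 to 35681159, plus strand) is among the most used marker genes of hypoxia. CA9 measured 23.0, 23.4 and 20.3 CPM at 0 h, then 22.5 and 26.2 after 1 h, 20.4, 21.1 and 18.9 after 3 h, 16.1, 14.3 and 13.6 after 6 h, 13.6, 12.6 and 14.5 after 12 h, and 12.8, 10.4 and 10.7 after 24 h. At 6, 12 and 24 h every library was below every library of 0, 1 and 3 h. The CA9 decline against 0 h was called at 6 h (log2 fold change -0.60, SE 0.0982, adjusted p 0.00022), 12 h (log2 fold change -0.71, SE 0.0983, adjusted p 0.00012) and 24 h (log2 fold change -0.97, SE 0.101, adjusted p 2e-06), and at 3 h it was not called (-0.14, adjusted p 0.33). The step from 3 h to 6 h, -0.46 (adjusted p 0.0012), was -0.240 with the length and GC correction.

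CA12 was lower at 3, 6 and 12 h and not called at 24 h. CA12 measured 24.3, 26.9 and 27.3 CPM at 0 h, then 28.0 and 29.7 after 1 h, 22.2, 21.8 and 22.8 after 3 h, 17.3, 18.8 and 18.02 after 6 h, 18.8, 19.1 and 21.0 after 12 h, and 26.2, 28.4 and 27.2 after 24 h. The 6 h and 12 h libraries were all below those of 0 h, and the 24 h libraries overlapped them. The fall was called at 6 h (log2 fold change -0.54, SE 0.0748, adjusted p 4.9e-05) and 12 h (log2 fold change -0.41, SE 0.0737, adjusted p 0.0013), and the rise from 12 h to 24 h had a log2 fold change of 0.47 (adjusted p 0.00064). Its smaller call at 3 h, -0.23, was lost in 9 of 31 alternative settings (adjusted p 0.051 to 0.15), among them leaving out 0 h replicates 2 and 3 and 3 h replicates 1, 2 and 3. Per kilobase of transcript, CA9 gave 77.0% ± 2.17 of the summed level of both carbonic anhydrases at 0 h and 62.0% ± 3.46 at 24 h (SD, n = 3). By CPM, without scaling by length, CA9 gave 45.9% at 0 h and 29.2% at 24 h. Which of CA9 and CA12 was the larger thus depends on the transcript lengths used, while the CA9 share was lower at 24 h on both scales.

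**Figure D3:**
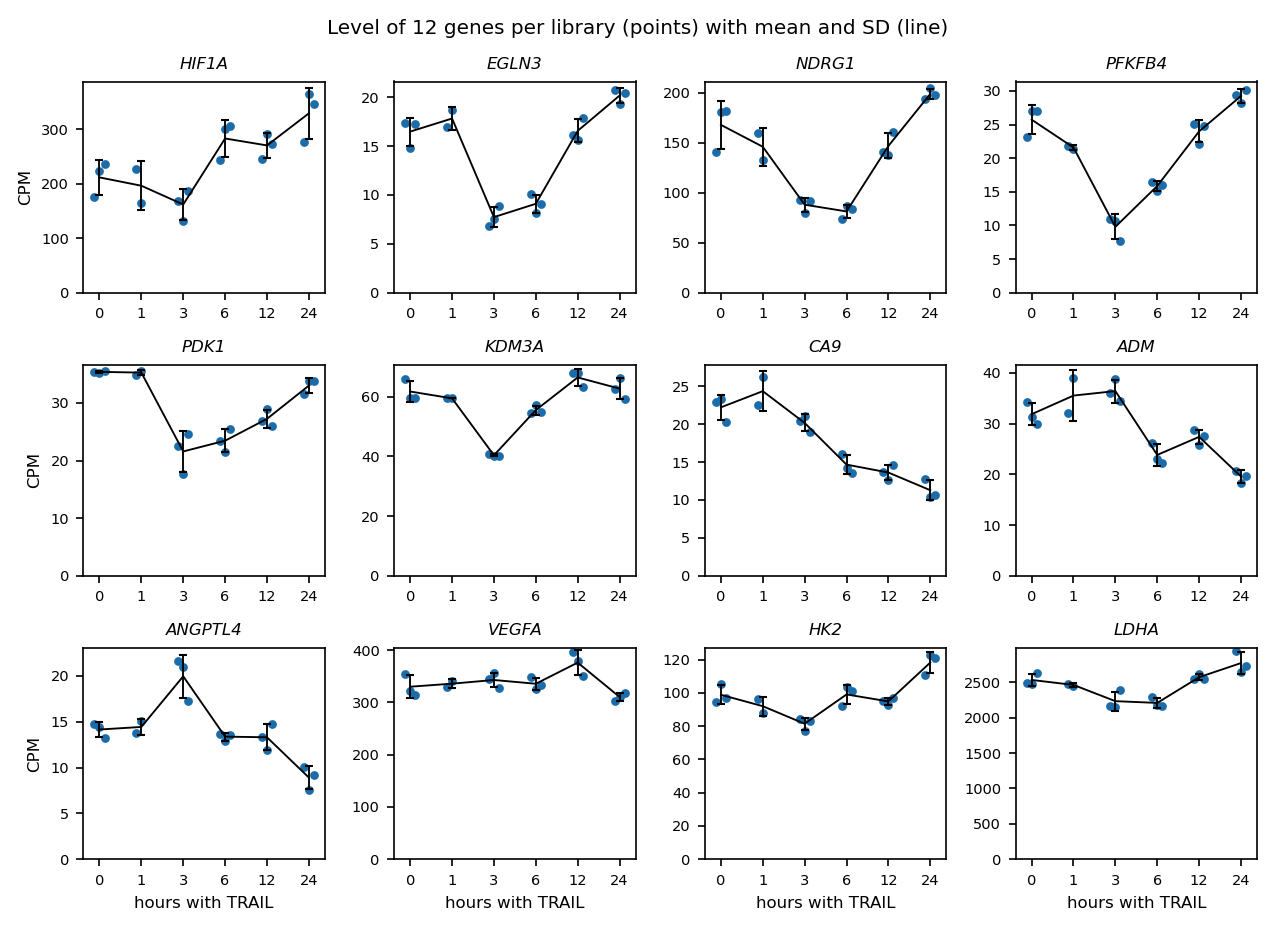
Points are the CPM of single libraries and lines the mean with SD at each time (hours with TRAIL, evenly spaced) for 12 genes, on axes that start at 0. EGLN3, PFKFB4, KDM3A and PDK1 drop at 3 h, NDRG1 at 3 and 6 h, CA9 declines step by step to 24 h, ANGPTL4 peaks at 3 h, and the VEGFA libraries of every later time overlap those of 0 h.

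Of the 8 mitophagy, stress and nuclear targets, 6 fell at 3 h and 0 rose, where 8.71% and 9.04% of all tested genes did. NDRG1 (ENSG00000104419.14) is a stress-responsive gene induced by low oxygen. NDRG1 measured 140.2, 181 and 182 CPM at 0 h, then 159 and 133 after 1 h, 92.3, 79.9 and 91.6 after 3 h, 73.7, 86.3 and 83.6 after 6 h, 141, 138 and 161 after 12 h, and 194, 205 and 197 after 24 h. The 6 libraries at 3 and 6 h were below every other library. NDRG1 fell at 3 h (log2 fold change -0.93, SE 0.0991, adjusted p 4.2e-06), was lowest at 6 h (log2 fold change -1.05, SE 0.0987, adjusted p 9.7e-07), and rose from 6 h to 12 h (log2 fold change 0.85, SE 0.0986, adjusted p 1.3e-05).

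KDM3A encodes a histone demethylase that removes a repressive mark. KDM3A measured 66.0, 59.7 and 59.6 CPM at 0 h, then 59.5 and 59.5 after 1 h, 40.8, 40.1 and 40.3 after 3 h, 54.4, 57.2 and 55.0 after 6 h, 68.1, 68.1 and 63.3 after 12 h, and 62.6, 66.2 and 59.4 after 24 h. Its 3 libraries at 3 h spanned less than 1 CPM and lay below all others. KDM3A fell at 3 h (log2 fold change -0.61, SE 0.0629, adjusted p 1.6e-06) and rose again by 6 h (log2 fold change 0.46, SE 0.0631, adjusted p 4.2e-05). At 6, 12 and 24 h it was not called against 0 h, but at 6 h the length and GC correction gave a call, -0.259 (adjusted p 0.0014) in place of -0.15.

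ANKRD37, a small ankyrin-repeat gene known as a direct HIF target, was among the least abundant members, with 37 to 112 counts per library. ANKRD37 measured 6.35, 5.42 and 5.60 CPM at 0 h, then 5.70 and 6.47 after 1 h, 4.005, 3.49 and 2.65 after 3 h, 5.12, 4.31 and 4.91 after 6 h, 7.54, 5.57 and 6.22 after 12 h, and 6.44, 4.90 and 6.47 after 24 h. All 3 libraries at 3 h were below all at 0 h. It fell at 3 h (log2 fold change -0.78, SE 0.170, adjusted p 0.0040) and at later times was not called. Its expected counts were not whole in 17 libraries, and its rise from 3 h to 6 h, 0.50 (adjusted p 0.025), was 0.796 after the length and GC correction. That rise was lost in 5 of 31 alternative settings (adjusted p 0.052 to 0.13), among them leaving out 3 h replicates 2 and 3 and 6 h replicates 1 and 3.

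BNIP3, a receptor on the outer mitochondrial membrane for mitophagy, was lower at 3, 6 and 12 h. BNIP3 measured 260.5, 240.3 and 259.9 CPM at 0 h, then 249.96 and 252 after 1 h, 200.3, 199.7 and 210.2 after 3 h, 173, 166 and 166 after 6 h, 209, 204 and 208 after 12 h, and 268, 245 and 248 after 24 h. Libraries at these 3 times were all below those of 0 h, and the 24 h libraries overlapped with 0 h. The fall was largest at 6 h (log2 fold change -0.59, SE 0.0521, adjusted p 2.2e-07), with -0.32 (adjusted p 0.00034) at 3 h and -0.29 (adjusted p 0.0012) at 12 h. Its relative BNIP3L, with 114 ± 6.71 CPM at 0 h, was not called at those times and was higher at 24 h, 0.23 (adjusted p 0.0054), or 0.150 with the length and GC correction. BNIP3 counts were not whole in 17 libraries.

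MXI1, an antagonist of the growth regulator MYC, fell at 3 h and 6 h. MXI1 measured 15.6, 17.3 and 20.4 CPM at 0 h, then 19.7 and 15.5 after 1 h, 14.2, 12.0 and 11.9 after 3 h, 12.4, 12.1 and 12.1 after 6 h, 15.8, 15.3 and 16.1 after 12 h, and 19.6, 19.3 and 18.6 after 24 h. Every 3 h and every 6 h library was below every 0 h library. The log2 fold change was -0.48 (adjusted p 0.0045) at 3 h and -0.54 (adjusted p 0.0010) at 6 h.

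INSIG2, which holds back the activation of sterol synthesis genes, fell at 3 h, -0.41 (adjusted p 0.010), from 31.6 ± 2.29 to 23.7 ± 4.34 CPM (SD, n = 3). This call was lost in 2 of 31 alternative settings (adjusted p 0.060 to 0.063), all by leaving out 0 h replicate 3 and 3 h replicate 2. WSB1, an adaptor of a ubiquitin ligase, went the other way: it was called higher at 6 h (0.37, adjusted p 0.0031), 12 h (0.28, adjusted p 0.034) and 24 h (0.47, adjusted p 0.00039). The 12 h call of WSB1 was lost in 5 of 31 alternative settings (adjusted p 0.056 to 0.19), among them leaving out 0 h replicates 1 and 2 and 12 h replicates 2 and 3. With the length and GC correction the WSB1 values were 0.177 at 12 h and 0.301 at 24 h, and both were still called.

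Of the 5 collagen-modifying enzymes, 4 fell at 3 h (8.71% of all tested genes did), and the members then went different ways. P4HA1, a catalytic subunit of collagen prolyl hydroxylase, fell most. P4HA1 measured 88.5, 96.1 and 102 CPM at 0 h, then 94.1 and 84.2 after 1 h, 65.6, 54.2 and 71.8 after 3 h, 74.9, 81.0 and 83.2 after 6 h, 81.3, 90.6 and 90.8 after 12 h, and 103, 104 and 104 after 24 h. All 3 h and all 6 h libraries were below those of 0 h. P4HA1 fell at 3 h (log2 fold change -0.58, SE 0.0841, adjusted p 0.00010), was less far below 0 h at 6 h (-0.26, adjusted p 0.022) and rose between those times (0.32, adjusted p 0.0050). That rise had a log2 fold change of 0.211 without the 3 h replicate 2. The 6 h call of P4HA1 was lost in 4 of 31 alternative settings (adjusted p 0.054 to 0.087), all by leaving out 0 h replicates 2 and 3 and 6 h replicates 1 and 2.

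P4HA2, the other catalytic subunit listed, was lower at 3 h (-0.25, adjusted p 0.011) and at 6 h (-0.25, adjusted p 0.0069). The first call was lost on omission of replicate 2 of 0 h (adjusted p 0.066) and the latter on omission of replicate 3 of 6 h (adjusted p 0.061). PLOD2, a lysyl hydroxylase, fell at 3 h (-0.35, adjusted p 0.013) and was not called at 6 h (log2 fold change against 0 h 0.017). The 3 h call of PLOD2 was lost in 3 of 31 alternative settings (adjusted p 0.053 to 0.084), all by leaving out 0 h replicate 3 and 3 h replicates 1 and 2. PLOD1, its relative, was not called at 3 h and was lower at 6 h (-0.23, adjusted p 0.0076), 12 h (-0.34, adjusted p 0.0012) and 24 h (-0.23, adjusted p 0.0057). Its 6 h call was lost on omission of replicate 3 of 6 h (adjusted p 0.051).

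LOX, the oxidase that starts the cross-linking of collagen and elastin, was lower at 3 h (-0.33, adjusted p 0.0088), 12 h (-0.28, adjusted p 0.029) and 24 h (-0.49, adjusted p 0.00021), but not called at 6 h, where the length and GC correction gave a call, -0.211 (adjusted p 0.0020) in place of -0.083. Its level was 118 ± 10.1 CPM at 0 h and 84.2 ± 2.90 at 24 h (SD, n = 3). The 3 h call of LOX was lost in 2 of 31 alternative settings (adjusted p 0.051 to 0.064), all by leaving out 0 h replicate 3 and 3 h replicate 2. The 12 h call of LOX was lost in 5 of 31 alternative settings (adjusted p 0.054 to 0.11), among them leaving out 0 h replicates 2 and 3 and 12 h replicates 1 and 3. Its rise from 3 h to 6 h, 0.25 (adjusted p 0.019), was 0.0457 and not called with the length and GC correction (adjusted p 0.49).

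The 16 glycolytic enzymes, from hexokinase to lactate dehydrogenase, changed by small amounts, and those called at 3 h were all lower. At that time 11 fell and 0 rose (8.71% and 9.04% of all tested genes did), and the log2 fold changes of all 16 ran from -0.36 to 0.015 with a median of -0.20. At 6 h, 6 were lower and 1 higher (13.2% and 16.9% of all), and at 12 h 6 lower and 0 higher (6.48% and 5.96%). At 24 h, 2 were lower and 3 higher, near the shares of all tested genes (17.1% and 18.0%). These enzymes are abundant: together they took 1.79% ± 0.0772 of all counts at 0 h, 1.55% ± 0.0159 after 3 h, 1.62% ± 0.0119 after 6 h, 1.76% ± 0.0438 after 12 h and 1.95% ± 0.0656 after 24 h (SD, n = 3 each). The highest 3 h library, 1.57%, was below the lowest 0 h library, 1.71%. These shares are of unscaled counts, without the TMM scaling used for CPM, so the 2 scales differ. TMM factors ran from 0.981 to 1.01 at 0 h, 0.939 to 0.961 at 3 h and 1.04 to 1.06 at 24 h.

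HK2, the hexokinase often raised in tumours, fell at 3 h. HK2 measured 94.3, 105 and 97.2 CPM at 0 h, then 96.1 and 87.9 after 1 h, 84.2, 77.3 and 83.0 after 3 h, 92.4, 104 and 101 after 6 h, 95.1, 92.7 and 97.0 after 12 h, and 111, 123 and 121 after 24 h. The 3 h libraries were below all of 0 h and the 24 h libraries above all of 0 h. HK2 was lower at 3 h (log2 fold change -0.28, SE 0.0646, adjusted p 0.0059) and higher at 24 h (log2 fold change 0.26, SE 0.0633, adjusted p 0.0043). The 24 h value was 0.115 with the length and GC correction, and the call was kept (adjusted p 0.040). Per kilobase, HK2 gave 24.8% ± 1.15 of the summed level of HK1 and HK2 at 0 h and 25.6% ± 0.572 at 24 h (SD, n = 3).

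LDHA, which turns pyruvate into lactate, had smaller changes. LDHA measured 2495, 2474 and 2633 CPM at 0 h, then 2480.2 and 2447 after 1 h, 2159.5, 2151 and 2391 after 3 h, 2290.2, 2177 and 2160.4 after 6 h, 2545, 2622 and 2551 after 12 h, and 2944, 2644 and 2729 after 24 h. At 3 and 6 h all libraries were below those of 0 h. It was lower at 3 h (log2 fold change -0.18, SE 0.0598, adjusted p 0.041) and at 6 h (log2 fold change -0.20, SE 0.0598, adjusted p 0.018). The 3 h call of LDHA was lost in 12 of 31 alternative settings (adjusted p 0.050008 to 0.16), among them leaving out 0 h replicates 1, 2 and 3, 3 h replicates 1 and 2, 6 h replicates 2 and 3, 12 h replicates 1 and 3 and 24 h replicate 3. The 6 h call of LDHA was lost in 4 of 31 alternative settings (adjusted p 0.063 to 0.079), among them leaving out 0 h replicate 3 and 6 h replicates 2 and 3. LDHA counts were not whole in 17 libraries, as were those of ALDOA, TPI1, GAPDH and PGAM1, which have related copies elsewhere in the genome, so these levels are uncertain.

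ALDOC, the aldolase typical of brain, was the enzyme that fell furthest and did not return. ALDOC measured 7.78, 7.66 and 8.21 CPM at 0 h, then 9.30 and 7.47 after 1 h, 6.01, 6.29 and 6.09 after 3 h, 5.62, 6.04 and 5.72 after 6 h, 5.35, 4.31 and 4.61 after 12 h, and 5.21, 4.77 and 4.34 after 24 h. The libraries of 3, 6, 12 and 24 h were all below those of 0 h. Its log2 fold change was -0.36 (adjusted p 0.040) at 3 h, -0.45 (adjusted p 0.0078) at 6 h, -0.74 (adjusted p 0.00053) at 12 h and -0.72 (adjusted p 0.00022) at 24 h. The 3 h call of ALDOC was lost in 9 of 31 alternative settings (adjusted p 0.061 to 0.13), among them leaving out 0 h replicates 1, 2 and 3 and 3 h replicates 1, 2 and 3. It is a minor form: per kilobase ALDOC gave 0.564% ± 0.0293 of the summed aldolase level at 0 h and 0.394% ± 0.0297 at 24 h, and ALDOA the rest.

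Among the other enzymes lower at 3 h, PGK1 fell from 1022 ± 66.8 to 798 ± 67.1 CPM (SD, n = 3; log2 fold change -0.36, SE 0.0710, adjusted p 0.0020). PGAM1 (-0.27, adjusted p 0.0039) and PFKP (-0.20, adjusted p 0.0097) held their calls in every alternative tried, as PGK1 and HK2 did. HK1 (-0.22), PFKM (-0.25), TPI1 (-0.21), ENO1 (-0.20) and PKM (-0.18) were also called lower, but each call rested on single libraries. That of HK1 was lost in 5 of 31 alternative settings (adjusted p 0.059 to 0.20), among them leaving out 0 h replicates 2 and 3 and 3 h replicates 1 and 2. That of PFKM was lost in 2 of 31 alternative settings (adjusted p 0.056 to 0.072), all by leaving out 0 h replicate 2 and 3 h replicate 2. For TPI1 it was lost in 2 of 31 alternative settings (adjusted p 0.054 to 0.074), all by leaving out 0 h replicate 2 and 3 h replicate 1. For ENO1 it was lost in 4 of 31 alternative settings (adjusted p 0.065 to 0.11), all by leaving out 0 h replicates 2 and 3 and 3 h replicates 1 and 3. For PKM it was lost in 6 of 31 alternative settings (adjusted p 0.057 to 0.12), among them leaving out 0 h replicates 2 and 3 and 3 h replicates 1, 2 and 3. HK1 at 3 h was -0.133 on omission of replicate 2 of 0 h. GAPDH, PFKL, ALDOA, GPI and ENO2 were not called at 3 h, with log2 fold changes of 0.015, -0.18, -0.092, -0.11 and -0.095. With the length and GC correction PFKL, -0.173 (adjusted p 0.029), and ALDOA, -0.146 (adjusted p 0.0058), were called lower there.

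At 6 h, the enzymes called lower were GAPDH, ENO2, ALDOA, GPI, LDHA and ALDOC. GAPDH fell from 4729 ± 168 to 3843 ± 197 CPM (SD, n = 3; log2 fold change -0.30, adjusted p 0.0052), ENO2 by a log2 fold change of -0.40 (adjusted p 8.5e-05) and ALDOA of -0.32 (adjusted p 0.0018). The length and GC correction left -0.158 for GAPDH, -0.349 for ENO2 and -0.142 for ALDOA, all still called. GPI was lower at 6 h (-0.15, adjusted p 0.023), and HK1 was called higher there (0.18, adjusted p 0.0498), the latter with an adjusted p next to the threshold. The 6 h call of GPI was lost in 6 of 31 alternative settings (adjusted p 0.060 to 0.15), among them leaving out 0 h replicates 1 and 2 and 6 h replicates 2 and 3. The 6 h call of HK1 was lost in 23 of 31 alternative settings (adjusted p 0.0504 to 0.29), among them leaving out 0 h replicates 1 and 3, 1 h replicates 1 and 2, 3 h replicates 1, 2 and 3, 6 h replicates 2 and 3, 12 h replicates 1, 2 and 3 and 24 h replicates 2 and 3. HK1 at 6 h was 0.1005 without the 0 h replicate 1. From 6 h to 12 h GAPDH rose by 0.23 (adjusted p 0.030) and LDHA by 0.22 (adjusted p 0.014). The GAPDH rise was lost on omission of replicate 2 or 3 of 6 h or replicate 1 or 3 of 12 h, and the LDHA rise for replicate 2 or 3 of 6 h. LDHA had a log2 fold change of 0.135 with the correction.

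At 12 h, PFKL (-0.29, adjusted p 0.0092), PFKP (-0.20, adjusted p 0.012), GPI (-0.17, adjusted p 0.025), ENO2 (-0.23, adjusted p 0.016), ALDOA (-0.27, adjusted p 0.013) and ALDOC were lower than at 0 h. All of these calls but that of ALDOC were lost on omission of replicate 2 of 12 h, those of PFKL, PFKP and GPI also for replicate 2 of 0 h, and those of GPI and ENO2 for its replicate 1. The GPI call was lost too without the 12 h replicate 1, and that of ENO2 without the 12 h replicate 3. The length and GC correction left -0.158 for PFKL, no longer called, and -0.161 for ALDOA. At 24 h, PKM, which makes pyruvate, was higher (log2 fold change 0.22, SE 0.0547, adjusted p 0.0047), with 2449.8 ± 132 CPM at 0 h and 2852 ± 60.3 at 24 h (SD, n = 3). HK1 (0.19, adjusted p 0.037) was called higher and ALDOA (-0.20, adjusted p 0.022) lower at 24 h. The 24 h call of HK1 was lost in 8 of 31 alternative settings (adjusted p 0.0504 to 0.25), among them leaving out 0 h replicates 1 and 3, 3 h replicate 1 and 24 h replicates 2 and 3. HK1 at 24 h was 0.106 without the 0 h replicate 1. The 24 h call of ALDOA was lost in 8 of 31 alternative settings (adjusted p 0.057 to 0.80), among them leaving out 0 h replicates 1 and 2 and 24 h replicates 2 and 3. ALDOA at 24 h was -0.015 with the length and GC correction, which also called TPI1, 0.255 (adjusted p 0.0011), PGAM1, 0.210 (adjusted p 0.0082), ENO1, 0.241 (adjusted p 0.00072), and LDHA, 0.132 (adjusted p 0.0099), higher at 24 h.

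**Figure D4:**
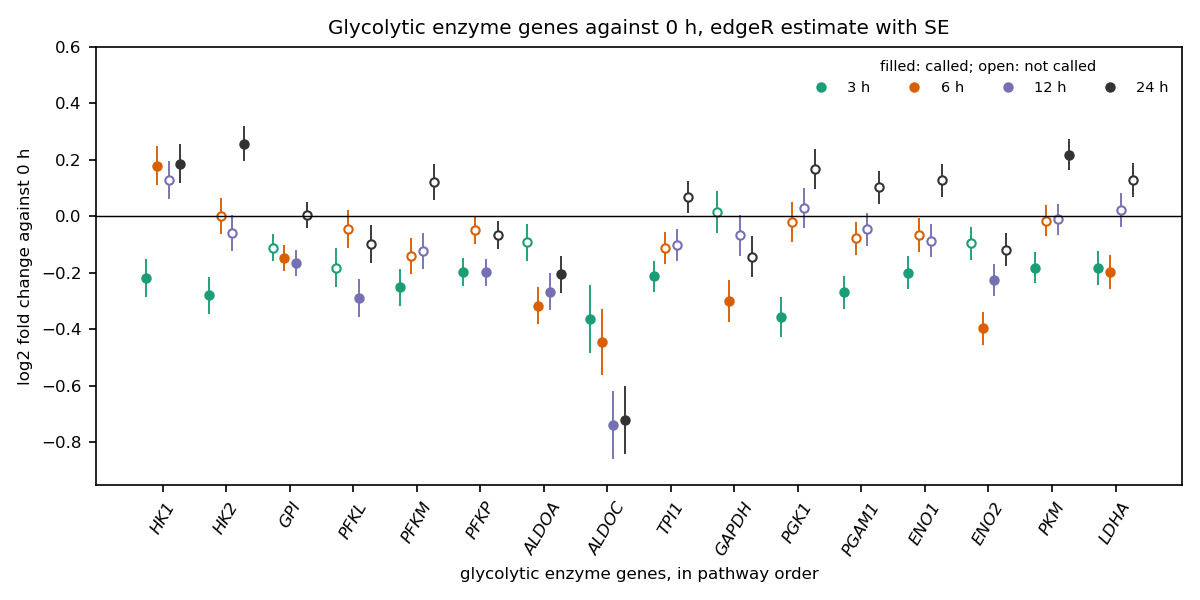
Log2 fold change against 0 h (edgeR estimate, bars are the SE) of the 16 glycolytic enzyme genes in pathway order, at 3, 6, 12 and 24 h by colour, with filled points for called values. At 3 h, 15 of 16 estimates are below 0, and ALDOC is the lowest at 12 and 24 h.

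Of the 4 regulators of glycolytic flux, 3 fell at 3 h and 0 rose (8.71% and 9.04% of all tested genes did), with log2 fold changes of all 4 from -1.40 to -0.16. PFKFB4 (ENSG00000114268.12, chromosome 3, 48517684 to 48562015, minus strand) and PFKFB3 encode bifunctional enzymes that make and remove the small sugar phosphate that activates phosphofructokinase. PFKFB4 measured 23.2, 27.0 and 27.0 CPM at 0 h, then 21.8 and 21.3 after 1 h, 10.98, 10.7 and 7.67 after 3 h, 16.5, 15.1 and 15.97 after 6 h, 25.0, 22.1 and 24.8 after 12 h, and 29.5, 28.1 and 30.2 after 24 h. The 3 h libraries were the lowest of all, the 6 h libraries lay between them and the rest, and the 24 h libraries were above all of 0 h. PFKFB4 fell at 3 h to a level of 0.380 times that at 0 h (log2 fold change -1.40, SE 0.108, adjusted p 2.5e-08), the largest change of any member. It was lower at 6 h (log2 fold change -0.70, SE 0.0985, adjusted p 5.8e-05), and the rises from 3 h to 6 h (0.70, adjusted p 0.00013) and from 6 h to 12 h (0.59, adjusted p 0.00034) brought it back. PFKFB4 counts were not whole in 17 libraries.

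PFKFB3 had the same direction and a smaller size. PFKFB3 measured 52.0, 59.5 and 57.2 CPM at 0 h, then 52.7 and 44.5 after 1 h, 42.9, 36.5 and 40.2 after 3 h, 56.6, 59.5 and 60.7 after 6 h, 55.3, 51.0 and 54.6 after 12 h, and 61.9, 63.0 and 64.1 after 24 h. Every 3 h library was below every 0 h library, and by 6 h the values overlapped. It fell at 3 h (log2 fold change -0.50, SE 0.0760, adjusted p 0.00018) and rose from 3 h to 6 h (log2 fold change 0.56, SE 0.0758, adjusted p 3.5e-05). Per kilobase, PFKFB4 gave 36.4% ± 0.679 of the summed level of both genes at 0 h and 23.5% ± 3.85 at 3 h (SD, n = 3).

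PDK1 (ENSG00000152256.13, chromosome 2, 172555373 to 172608669, plus strand) encodes a kinase that shuts pyruvate dehydrogenase and so holds pyruvate back from oxidation in mitochondria. PDK1 measured 35.3, 35.3 and 35.6 CPM at 0 h, then 34.9 and 35.6 after 1 h, 22.5, 17.6 and 24.7 after 3 h, 23.4, 21.5 and 25.4 after 6 h, 26.8, 28.997 and 25.9 after 12 h, and 31.5, 33.8 and 33.8 after 24 h. The 0 h libraries were within 1 CPM of each other, and all libraries at 3, 6, 12 and 24 h were below them. PDK1 fell at 3 h (log2 fold change -0.71, SE 0.0945, adjusted p 3.6e-05), and was lower at 6 h (log2 fold change -0.59, SE 0.0920, adjusted p 0.00014) and 12 h (log2 fold change -0.38, SE 0.0905, adjusted p 0.011). With the length and GC correction the values were -0.644, -0.792 and -0.516, and at 24 h, where PDK1 was not called (-0.10, adjusted p 0.40), the corrected value was -0.344 and called (adjusted p 0.0015). These corrected values rest on a representative transcript of 14193 bases. PDK1 counts were not whole in 15 libraries.

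PDK3, a kinase of the same family, was not called at 3, 6 or 12 h and was higher at 24 h (log2 fold change 0.38, SE 0.0795, adjusted p 0.0013), with 16.4 ± 0.156 CPM at 0 h and 21.4 ± 0.327 at 24 h (SD, n = 3). Per kilobase, PDK1 gave 22.6% ± 0.245 of the summed level of PDK1 and PDK3 at 0 h, 16.6% ± 1.58 at 3 h and 17.3% ± 0.769 at 24 h. By CPM, without scaling by length, PDK1 gave 68.3%, 59.4% and 60.7% at these times. Which of PDK1 and PDK3 was the larger thus depends on the transcript lengths used.

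Of the glycogen genes, GBE1, the branching enzyme, fell at 3 h from 102 ± 8.77 to 83.6 ± 7.28 CPM (SD, n = 3; log2 fold change -0.29, SE 0.0790, adjusted p 0.016). The 3 h call of GBE1 was lost in 4 of 31 alternative settings (adjusted p 0.057 to 0.095), all by leaving out 0 h replicates 2 and 3 and 3 h replicates 1 and 2. PPP1R3C, which brings a phosphatase to glycogen and favours its synthesis, was the least abundant member, with 32 to 88 counts per library. PPP1R3C measured 3.48, 2.99 and 3.61 CPM at 0 h, then 3.61 and 3.27 after 1 h, 2.97, 2.48 and 3.15 after 3 h, 3.54, 3.05 and 2.59 after 6 h, 5.35, 4.41 and 4.72 after 12 h, and 4.45, 4.59 and 5.00 after 24 h. The 12 h and 24 h libraries were all above those of the earlier times. PPP1R3C was higher at 12 h (log2 fold change 0.51, SE 0.147, adjusted p 0.028) and at 24 h (log2 fold change 0.47, SE 0.150, adjusted p 0.019). The 12 h call of PPP1R3C was lost in 7 of 31 alternative settings (adjusted p 0.052 to 0.12), among them leaving out 0 h replicates 1 and 2 and 12 h replicates 1, 2 and 3. The 24 h call of PPP1R3C was lost in 5 of 31 alternative settings (adjusted p 0.058 to 0.078), among them leaving out 0 h replicate 2 and 24 h replicate 3.

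Levels per kilobase of transcript spanned a wide range at 0 h. GAPDH was the highest, with 2522 ± 89.5 CPM per kilobase (SD, n = 3), followed by ENO1 (1386 ± 71.9), LDHA (1049 ± 35.7) and PKM (902 ± 48.4). The lowest were PDK1 (2.49 ± 0.0125) and PPP1R3C (1.33 ± 0.130). The scale depends on the representative transcript chosen for each gene.

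Libraries differed in 2 further measures that moved with time. The trend of each library's log2 CPM with transcript length, taken against the mean of the 17, had a slope of -0.037 per doubling of length at 0 h, -0.10 at 3 h and 0.10 at 24 h. Mitochondrial genes took 6.75% ± 1.46 of counts at 0 h, 8.59% ± 0.521 at 3 h and 3.90% ± 0.240 at 24 h (SD, n = 3). It was 8.68% at 1 h, where 0 members were called, 4.49% at 6 h and 5.72% at 12 h. The part of the mitochondrial share in the results was not tested. With each library's trend on transcript length and GC content removed, the median of the 44 genes at 3 h was -0.24 as before, and 31 were lower and 1 higher, where 12.5% and 13% of all tested genes were. At 6 h the corrected fit called 20 lower and 3 higher, where 10.9% and 18.7% of all tested genes were. At 24 h it called 7 lower and 14 higher, where 15.8% and 18% of all were, so the lower count was at the share of the background.

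**Figure D5:**
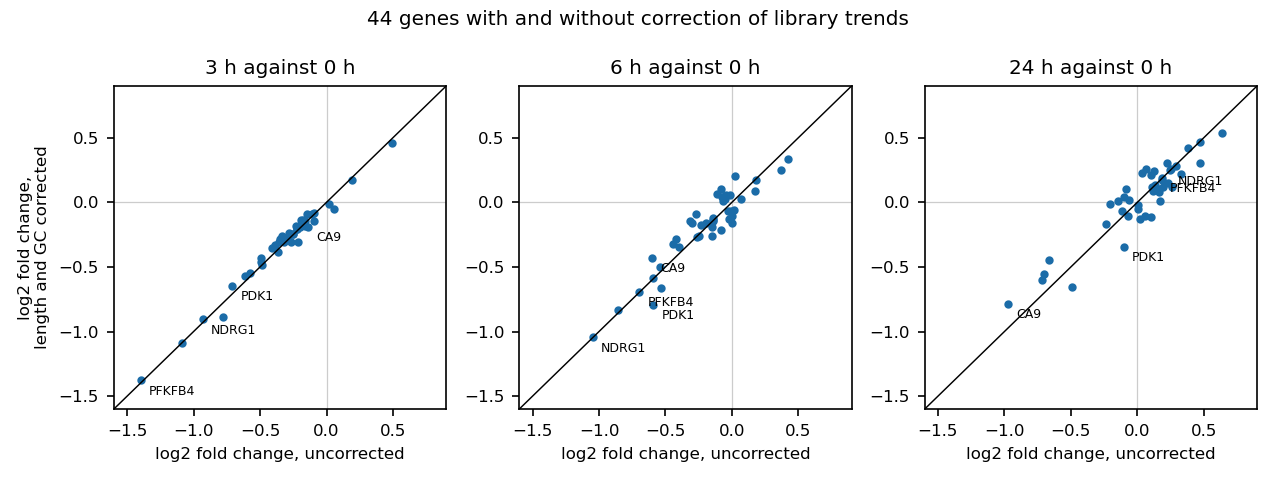
Each point is 1 of the 44 genes, with the log2 fold change against 0 h as reported on the x axis and after the per-library correction for transcript length and GC content on the y axis, at 3, 6 and 24 h; the diagonal marks equal values. Points stay near the diagonal at 3 h, and spread further from it at 6 and 24 h, where PDK1 lies below it.

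Genes of the same pathways outside the 44 were counted from 5 lists that together name 80 genes. Of these, 79 were found and 68 tested. The lists too were chosen with earlier results of these data known. Of 24 other HIF targets tested, 10 were lower and 4 higher at 3 h (median log2 fold change -0.26), where 8.71% and 9.04% of all tested genes were. At 24 h, 4 were lower and 6 higher (median 0.021), where 17.1% and 18.0% of all were, so the lower count was near the background. Against 0 h, the 3 called genes with the largest changes in the 5 lists were MIR210HG, CCNG2 and PDK4. MIR210HG, the host gene of a hypoxia-induced microRNA, was 13.7 ± 0.615 CPM at 0 h and 5.32 ± 0.376 at 6 h (log2 fold change -1.36, SE 0.123, adjusted p 2.9e-07). CCNG2, a cyclin linked to growth arrest, was 18.4 ± 1.41 CPM at 0 h and 7.45 ± 1.81 at 3 h (log2 fold change -1.30, adjusted p 1.6e-06). PDK4, a further kinase of pyruvate dehydrogenase, rose to a log2 fold change of 1.33 at 24 h (SE 0.255, adjusted p 0.00068), the opposite direction to PDK1 at 3 to 12 h. Its level was low, 1.06 ± 0.436 CPM at 0 h and 2.67 ± 0.230 at 24 h, below that of PPP1R3C, the least abundant member.

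The all-gene shares to set beside the counts that follow are the same: 8.71% lower and 9.04% higher at 3 h, and 17.1% and 18.0% at 24 h. Of 12 other genes of the HIF machinery, 1 was higher at 3 h, the ubiquitin ligase subunit RBX1 (0.32), and 1 was lower, CITED2 (-1.09), which competes with HIF for its coactivators. At 24 h, 6 of the 12 were higher and 2, RBX1 (-0.32) and ELOB (-0.55), were lower. Of 18 other glycolysis and pyruvate genes, 2 were lower at 3 h, DLAT (-0.30) and PDK2 (-0.39), and 1 was higher, PFKFB2 (0.45), a relative of PFKFB3 and PFKFB4, which is near the shares of all tested genes. At 24 h, 6 of these 18 were lower and 2, PDK4 and PFKFB2, were higher. Of 8 other glycogen genes, 3 were lower and 0 higher at 3 h: PGM1 (-0.52), GYS1 (-0.31) and PYGB (-0.20). At 24 h, 6 of these 8 were higher and 1, PYGL (-0.20), was lower. The genes of this paragraph were named after their values were seen.

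Total counts ran from 13731520 to 19234924 per library. All 7 mesenchymal markers were abundant or present in every library, VIM with a median of 3349.8 CPM. Their summed level was 7991 to 8403 CPM at 0 h, 7855 to 8237 at 3 h, 8948 to 9252 at 6 h and 7309 to 7346 at 24 h. Of the 8 luminal and epithelial markers, ESR1 reached 2 counts, PGR 1 and CDH1 16. ERBB2 (786 to 1221 counts), EPCAM (204 to 346) and GATA3 (105 to 213) were detected in every library. KRT8 (12308 to 18612 counts, median 967 CPM) and KRT18 (8054 to 13033, median 662) were abundant. The mesenchymal markers CAV1 and AXL had medians of 851 and 758 CPM. The luminal and epithelial sum was 1846 to 1923 CPM at 0 h, 1805 to 2165 at 3 h, 1569 to 1680 at 6 h and 1419 to 1592 at 24 h. Of the 5 leukocyte markers, CD3E was at 0 in all 17 libraries, PTPRC reached 5 counts and CD14 had 11 to 32, and the summed level was 1.37 to 1.87 CPM at 0 h, 1.71 to 2.01 at 3 h and 1.76 to 2.35 at 24 h. The sum of the 3 endothelial markers was far below the mesenchymal and luminal sums and also moved with time. It was 1.06 to 1.93 CPM at 0 h, 0.789 to 0.964 at 3 h and 2.85 to 4.10 at 24 h. Nearly all of this endothelial sum was PECAM1, with VWF at most 5 counts and CDH5 at most 2. The part of these markers in the results was not tested. In these bulk libraries, fewer cells of a kind and less RNA per cell cannot be told apart.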

How the data were processed

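The authors deposited 1 table of expected counts per gene, that is, fragments estimated by RSEM as the file name says, with no scaling. Libraries were TruSeq Stranded mRNA, paired-end, per the labels' protocols. The submitters' processing notes name cutadapt 1.18, STAR 2.7.0f and hg38. The RSEM version, annotation and strand setting are not given in the sources used here, and where strand was not used, overlapping genes could exchange counts. Of the deposited values, 10.8% were not whole, and such genes are pointed out where this held in 15 or more libraries.

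Expected counts were rounded. edgeR 4.0.16 (R 4.3.3) was run with filterByExpr, TMM, 1 mean per time and robust quasi-likelihood fits over all 17 libraries, with Benjamini-Hochberg adjustment over 15365 genes, after tests on simulated data. The common biological coefficient of variation was 7.06%. Alternatives were RLE, upper-quartile and total-count scaling, no filter, DESeq2 1.42.0, limma-voom (limma 3.58.1), a filter on the mean count (10), non-robust fits, only the groups compared, a replicate block, a per-library correction for length and GC (spline with 5 degrees of freedom, GENCODE 29 transcripts, matched without the version for 58597 of 58870 entries), replicates 2 and 3 at 6 h and at 24 h averaged because they differed least, unrounded counts, and each library left out.

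Values in every library are given for HIF1A, VEGFA, CA9, HK2, PFKFB3, PFKFB4, LDHA and PDK1, and for members called against 0 h whose log2 fold change was 0.5 or more in size. The members and lists were chosen with earlier results of these data known. The listed gene PGLS was not analysed here. The result of the list of pentose phosphate genes is not reported here.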

Additional observations from a re-analysis of the deposited data

How the results depend on the processing

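Of the 153 calls of members over the 9 comparisons, 147 kept their direction and side of the threshold with DESeq2, 151 with limma-voom, 150 with RLE scaling and 117 with replicates 2 and 3 at 6 h and 24 h averaged. ALDOA from 3 h to 6 h reversed from -0.22 to 0.0034 with the length and GC correction and 0.0034 with the replicate block and that correction. The replicate block alone kept 150 calls, including 28 lower at 3 h; same-numbered libraries deviated with a mean correlation of 0.0091 (8 of 40 pairs above 0.1), and 7 of 17 libraries correlated best with their own number, so the numbers were not taken as a pairing.

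Counts higher at 6 h against 0 h (2) were 1 with RLE, upper-quartile or total-count scaling, a mean count of at least 10, averaging, or unrounded counts. With averaging, counts were 1 higher at 12 h (3), 6 higher at 24 h (10), 12 higher from 3 h to 6 h (19), 6 higher and 0 lower from 6 h to 12 h (11 and 2), and 5 higher from 12 h to 24 h (14). Total-count scaling gave 20 higher at 24 h, where it also moved the all-gene median up. It gave 1 lower from 6 h to 12 h, and upper-quartile scaling 0 lower there. Fitting only the groups compared gave 0 higher and 6 lower at 3 h against 1 h (1 and 14). The correction gave 4 lower from 6 h to 12 h, where 17.5% of all tested genes were lower with it. From 12 h to 24 h it gave 24 higher, where 9.78% of all tested genes were higher with it. The correction with the block gave 23 lower at 3 h against 1 h and 5 lower from 6 h to 12 h. From 12 h to 24 h that fit gave 24 higher and 5 lower (14 and 3). Shares of all tested genes under the other settings of this paragraph are not given here.

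With 1 library left out, lower calls ranged from 18 to 28 at 3 h, 14 to 18 at 6 h, 7 to 12 at 12 h and 6 to 8 at 24 h, and higher calls were 1 at 3 h, 1 to 3 at 6 h, 0 to 3 at 12 h and 6 to 12 at 24 h; at 1 h both were 0. Against the time before, ranges were 8 to 14 lower and 0 to 1 higher at 3 h, 7 to 8 lower and 13 to 20 higher at 6 h, 0 to 3 lower and 6 to 12 higher at 12 h, and 2 to 4 lower and 4 to 20 higher at 24 h. Over all times 43 to 44 members varied. Where 1 library at 1 h is left, its spread is assumed to be that of the other groups. The cause of these shifts was not tested. Depth limits the least abundant members, PPP1R3C and ANKRD37.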
